A study of Homo sapiens with 9 samples.

Results

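The proteasome genes, those with a symbol of PSMA, PSMB, PSMC, PSMD, PSME, PSMF or PSMG and a number, were followed in OCI-Ly1 cells, a human diffuse large B-cell lymphoma line, after knockdown of the histone demethylase LSD1. Pseudogenes and antisense RNAs were left out, and 47 of the 48 genes of the family in the annotation had a row among the 26816 of the table. Polyadenylated RNA was read in 9 libraries from puromycin-selected cells that carried a pLKO1 shRNA vector, with 3 biological replicates for each shRNA. The groups were cells with the LSD1 shRNA sh68, cells with the LSD1 shRNA sh72, and cells with the non-targeting control shSCR, and the control cells thus carried the vector and its selection marker too. The shRNAs keep the names of the count table, since no label ties them to the numbers in the sample titles. The libraries held 29506767 to 35270849 counted reads.

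The targeted gene, KDM1A, which encodes LSD1, averaged 24.4 ± 1.26 counts scaled to library size (CPM) with sh68 and 20.9 ± 1.82 CPM with sh72, against 121 ± 1.44 CPM in shSCR (SD, n = 3 each). The 4 B-cell markers MS4A1, CD79A, CD79B and PAX5 were read, and they summed to 2999 to 3079 CPM in sh68, 1717 to 1840 CPM in sh72 and 3078 to 3223 CPM in shSCR. All 4 fell with sh72, with a median log2 fold change of -0.985. The 8 markers of T cells, monocytes, natural killer cells, fibroblasts, epithelium and red cells summed to 9.7 to 11.6 CPM in sh68, 17.6 to 18.8 CPM in sh72 and 15.7 to 18.6 CPM in shSCR. EPCAM, the epithelial marker, averaged 8.14 CPM in sh68, 15.8 CPM in sh72 and 16.7 CPM in shSCR and fell with sh68. COL1A1 of fibroblasts averaged 1.27 CPM in sh68, 1.8 CPM in sh72 and 0.36 CPM in shSCR and rose with both, LYZ of monocytes averaged 0.79 CPM in sh68 and 0.0417 CPM in sh72, with 0 reads in shSCR, and rose with sh68, and CD3D of T cells, at most 0.459 CPM in any library, rose with sh72. The other 4 had at most 11 reads in any library and were not tested. The part of these differences in the results below was not tested.

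The proteasome degrades proteins tagged with ubiquitin. Its 20S core is a barrel of alpha rings, which gate the entry, and beta rings, which hold the catalytic subunits PSMB5 (chymotrypsin-like), PSMB6 (caspase-like) and PSMB7 (trypsin-like). The 19S particle caps the barrel, and its ATPases unfold the substrate while its lid and base bind and remove ubiquitin. Under interferon, cells make PSMB8, PSMB9 and PSMB10, which take the places of PSMB5, PSMB6 and PSMB7 in the immunoproteasome, and the activator subunits PSME1 and PSME2, which open the core. These forms are known for making peptides for MHC class I, and they are abundant in lymphoid cells. Cells in which the proteasome is inhibited raise its genes through the transcription factor NFE2L1.

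Interferon acts through DNA elements near the start of its target genes, among them the interferon-stimulated response element (ISRE), bound by IRF proteins. RefSeq promoter windows on GRCh38.p14, from 250 bases before to 50 bases after a start, were given for 42 of the 48 family members, in 51 windows. A core of the element, GAAA and again GAAA with any 2 bases between them, searched on both strands, was in 7 windows, which is 13.7% of them, and in 3.57% of the 35116 windows of all genes. These are the 30 bases round each match, shown because 3 of the 7 genes are the interferon-induced members that fell below; capitals mark the match, and each sequence runs 5′ to 3′ on the strand of its gene.
PSMB10, chr16:67936852-67936881, minus strand: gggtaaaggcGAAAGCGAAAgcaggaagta
PSME2, chr14:24146619-24146648, minus strand: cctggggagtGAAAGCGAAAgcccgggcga
PSME1, chr14:24136189-24136218, plus strand: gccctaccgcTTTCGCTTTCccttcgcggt
PSMB8, chr6:32844032-32844061, minus strand: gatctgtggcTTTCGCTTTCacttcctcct
PSMG4, chr6:3258904-3258933, plus strand: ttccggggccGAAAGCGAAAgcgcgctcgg
PSMB4, chr1:151399495-151399524, plus strand: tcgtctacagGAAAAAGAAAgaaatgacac
PSMA4, chr15:78540155-78540184, plus strand: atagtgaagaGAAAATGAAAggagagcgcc
PSMB10, PSME2 and PSMG4 held the same 10 letters, and PSMB8 and PSME1 held their reverse complement. The match began 21 bases before the start in PSMB10, 28 in PSME2, 33 in PSMG4, 68 in PSMB4 and 240 in PSMA4, spanned the start in PSMB8, and lay just past the start in PSME1. PSMB9 had no match in its window. Not all genes with a match fell. PSMG4 passed with neither shRNA, at -0.028 (adjusted p = 0.755) with sh68 and 0.154 (adjusted p = 0.0643) with sh72. PSMB4 had 0.015 with sh68 and rose with sh72, at 0.129. PSMA4 fell with sh68 alone, and PSMB8 could not be tested. A link between the letters and the changes was not tested.

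The other patterns searched on both strands were TTCNNNGAA for the gamma-activated site, another element of the interferon response, TGACNNNGC for the antioxidant response element that NFE2L1 binds, and CCAAT. TTCNNNGAA was in 15.7% of the members' windows and in 7.66% of all windows, TGACNNNGC in 29.4% and 13.3%, and CCAAT in 39.2% and 34.6%. No match of a pattern overlapped that of another in the members. A match is a description of the letters and no sign of binding. The 250 bases before the start are shown for PSMB10 and PSME2, the interferon-induced genes whose ISRE letters lie wholly before the start, and for PSME3, the related activator gene that is not induced by interferon, with matches to all patterns but CCAAT in capitals. They lie at chr16:67936851-67937100 on the minus strand for PSMB10, chr14:24146611-24146860 on the minus strand for PSME2, and chr17:42833147-42833396 on the plus strand for PSME3.
PSMB10: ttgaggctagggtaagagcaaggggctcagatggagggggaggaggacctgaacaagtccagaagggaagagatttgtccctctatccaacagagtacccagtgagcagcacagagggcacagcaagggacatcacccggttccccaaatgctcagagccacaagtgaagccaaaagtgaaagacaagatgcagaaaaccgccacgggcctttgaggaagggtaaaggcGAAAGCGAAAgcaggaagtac
PSME2: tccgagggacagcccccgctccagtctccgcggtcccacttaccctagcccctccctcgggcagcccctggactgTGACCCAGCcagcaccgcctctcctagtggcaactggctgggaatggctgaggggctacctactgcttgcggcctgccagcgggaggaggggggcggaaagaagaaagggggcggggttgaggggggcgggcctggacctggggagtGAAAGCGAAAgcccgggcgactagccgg
PSME3: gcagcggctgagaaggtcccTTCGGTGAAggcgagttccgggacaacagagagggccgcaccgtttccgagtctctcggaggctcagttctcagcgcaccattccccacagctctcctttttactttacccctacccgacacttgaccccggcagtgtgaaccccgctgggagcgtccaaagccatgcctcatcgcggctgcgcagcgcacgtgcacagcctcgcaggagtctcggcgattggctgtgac
PSMB10 held the ISRE letters alone, PSME2 the ISRE letters and the TGACNNNGC letters, and PSME3 the TTCNNNGAA letters. For 44 of the 51 windows the bases after the start matched the first bases of an annotated transcript.

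Not all members could be read. PSMB8, the interferon-induced counterpart of PSMB5, had 0 to 2 reads in every library, PSMB11, the counterpart made in the thymus, 0 or 1, and PSMB9, the counterpart of PSMB6, had no row. PSMB3, a constitutive beta subunit that every proteasome needs, also had 0 or 1. Genes beside PSMB8 and PSMB3 were low too: on chromosome 6, TAP1, HLA-DMB and HLA-DMA had 0 to 2 reads in every library while TAP2 had 320 to 453, and on chromosome 17 the neighbours of PSMB3 from ARHGAP23 to CWC25 had at most 11, while RPL23 had 16508 to 22939. The reason for these low counts was not tested, and the values of PSMB3, PSMB8, PSMB9 and PSMB11 are not read as expression. PSMC1, a 19S ATPase, had 115 to 141 reads; 75.8% of its exon length is shared with NRDE2 on the other strand, 13 pseudogenes carry its name, and its values are uncertain. The 44 members tested include PSMC1 and leave out PSMB3, PSMB8 and PSMB11.

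Levels were compared between members per length, as RPKM, which scale the counted reads to transcript length and library size. In control cells the 29 constitutive 20S and 19S genes other than PSMB3 and PSMC1 lay between 21.1 and 214 RPKM with a median of 93.4 RPKM. PSME1 had 115 ± 4.67 RPKM in sh68, 160.0 ± 5.97 RPKM in sh72 and 193 ± 6.14 RPKM in shSCR (SD, n = 3 each), and in control cells it stood among the highest members. PSME2 had 112 ± 3.07 RPKM in control cells. PSMB10 had 44.2 ± 2.73 RPKM in control cells, below its constitutive counterpart PSMB7 with 70.4 ± 1.62 RPKM. The chaperones that assemble the base had 21.1 to 30.4 RPKM, and those that assemble the core had 17.8 to 54.3 RPKM. PSMA8, an alpha subunit known from the testis, was read at 30.8 ± 0.527 RPKM. These levels depend on the transcript taken: PSME3 had 268 ± 5 RPKM with the transcript used and 79.5 RPKM with its longest one.

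**Figure D1:**
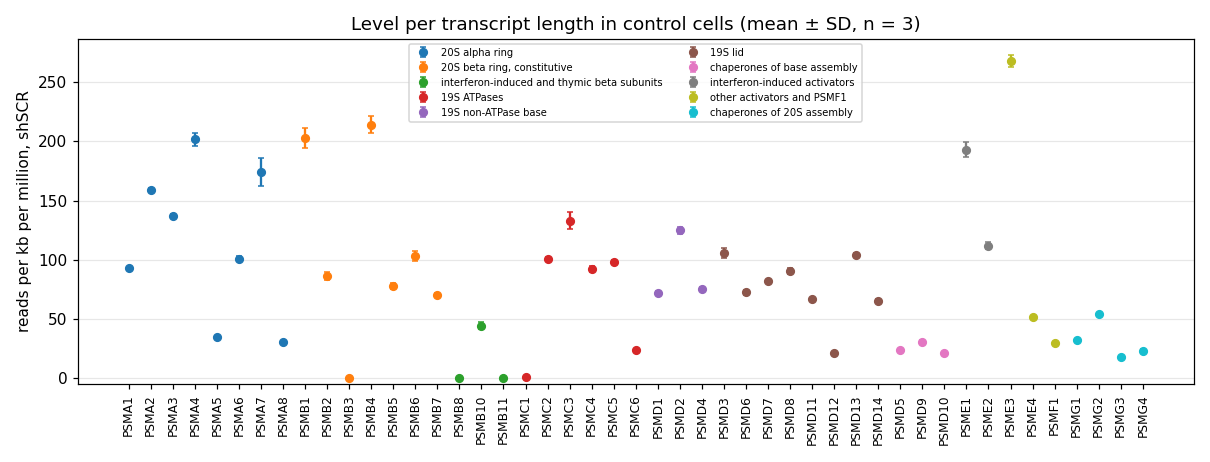
Level per transcript length in shSCR cells (y axis, RPKM, mean ± SD of 3 libraries) of the 47 members in the table (x axis), coloured by role. PSMB3, PSMB8, PSMB11 and PSMC1 lie at or near 0, PSMB10 lies at 44.2 RPKM and PSME1 at 193 RPKM.

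The comparison of the mean of both shRNAs with shSCR asks how the proteasome genes changed when LSD1 was lowered. A change passed the test (adjusted p below 0.05) in 15 of the 44 members, 5 higher and 10 lower, while 52.3% of the 15725 genes tested were called, 24.9% higher and 27.5% lower. The median log2 fold change was -0.005 over the members and -0.015 over all genes. The interferon-induced members tested were lower with both shRNAs, as were 13.0% of all genes. Of the 30 constitutive 20S and 19S subunits tested (PSMA8 is not among them), 15 were lower and 1 higher with sh68. With sh72, 18 of them were higher and 0 lower. Among all genes, 28.1% were lower and 27.4% higher with sh68, and 24.7% were higher and 26.3% lower with sh72. The plot of fold changes by role shows the members.

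**Figure D2:**
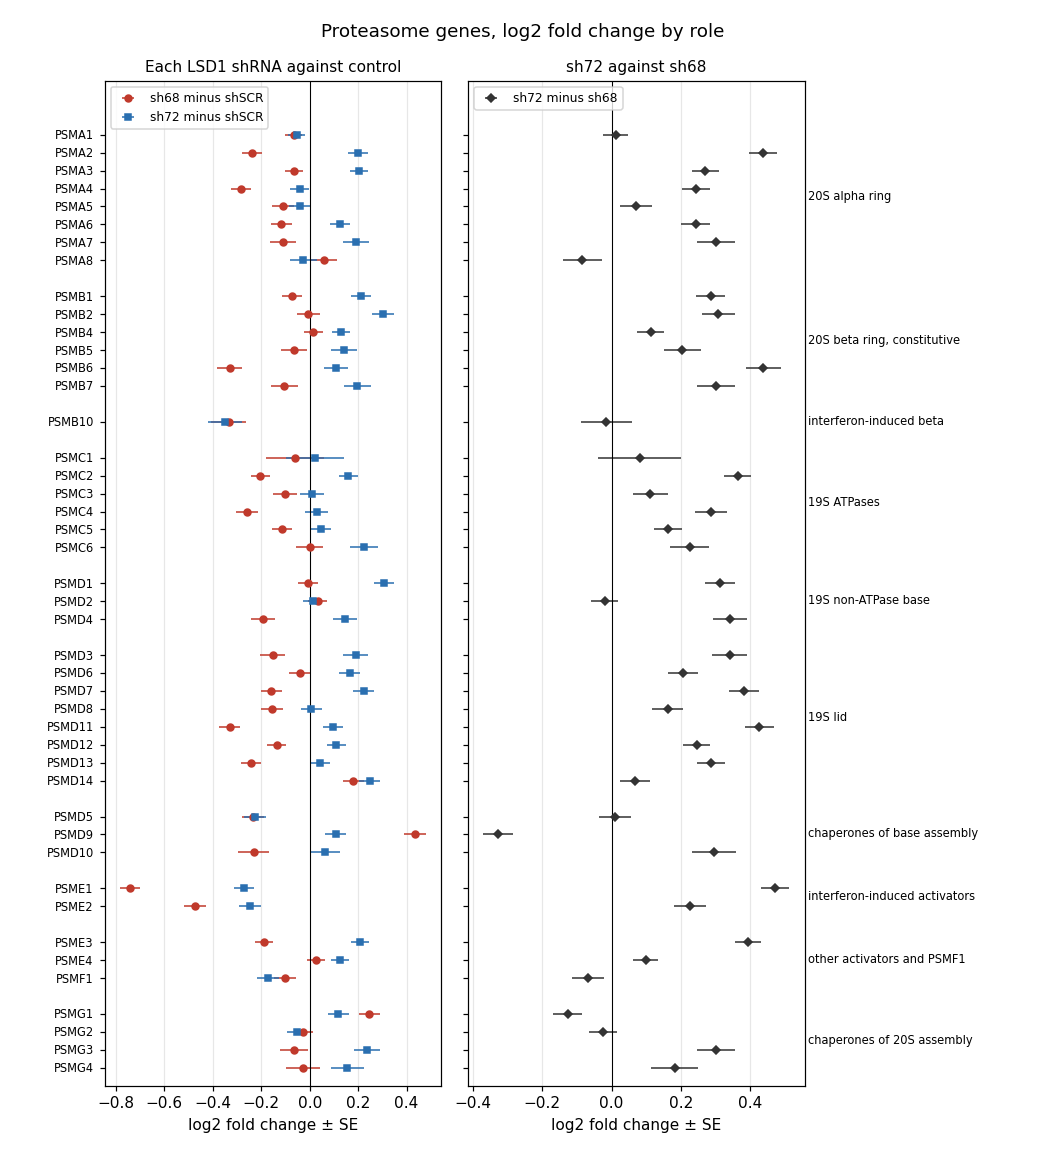
Log2 fold change ± SE (x axis) of the 44 members tested, grouped by role (y axis). On the left are sh68 minus shSCR (circles) and sh72 minus shSCR (squares), and on the right is sh72 minus sh68 (diamonds). Of the members left of 0 for both shRNAs, PSME1, PSME2, PSMB10 and PSMD5 passed the test with both. Others, such as PSMF1 and PSMA4, did not. Most constitutive subunits are left of 0 for sh68 and right of 0 for sh72.

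The interferon-induced members that could be tested, PSME1, PSME2 and PSMB10, all fell with each shRNA, 3 of 3 tested of 5 listed. Of all genes tested, 13.0% were lower with each shRNA. PSME1 (chromosome 14, 24136194 to 24138962) had 111, 119.8 and 118 CPM in the sh68 libraries, 168, 156 and 159.8 CPM in sh72 and 200.5, 195 and 188 CPM in shSCR. The groups did not overlap: sh68 was lowest, sh72 lay between, and shSCR was highest. Here and below, overlap of groups was looked at in the members alone, and its share over all genes was not counted. The log2 fold change was -0.74 ± 0.041 (adjusted p = 2.43e-13) with sh68 and -0.27 ± 0.041 (adjusted p = 5.22e-06) with sh72, and sh72 exceeded sh68 by 0.47 ± 0.041 (adjusted p = 9.06e-10).

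PSME2, the other subunit of the same activator ring, lies on chromosome 14 as well (24143365 to 24146610). It had 109, 115 and 116 CPM in the sh68 libraries, 144, 127 and 127 CPM in sh72 and 162, 153 and 158 CPM in shSCR. Its groups stood in the same order without overlap. The log2 fold change was -0.47 ± 0.046 (adjusted p = 5.35e-09) with sh68 and -0.25 ± 0.045 (adjusted p = 7.1e-05) with sh72, and sh72 exceeded sh68 by 0.23 ± 0.046 (adjusted p = 0.00018).

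PSMB10, the inducible trypsin-like subunit (chromosome 16, 67934506 to 67936850), had 40.2, 46.0 and 41.9 CPM in the sh68 libraries, 47.8, 42.5 and 36.3 CPM in sh72 and 57.7, 52.0 and 51.9 CPM in shSCR. All 6 LSD1 shRNA libraries lay below all 3 controls, and the sh68 and sh72 libraries overlapped. The log2 fold change was -0.34 ± 0.072 (adjusted p = 0.00035) with sh68 and -0.35 ± 0.072 (adjusted p = 0.000261) with sh72. The difference of sh72 minus sh68, -0.01 ± 0.073 (adjusted p = 0.876), did not pass, with a 95% interval of ± 0.14. Another gene annotated as protein-coding on the same strand shares 34.8% of the exon length of PSMB10, so that some of the reads of PSMB10 may belong to that gene.

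**Figure D3:**
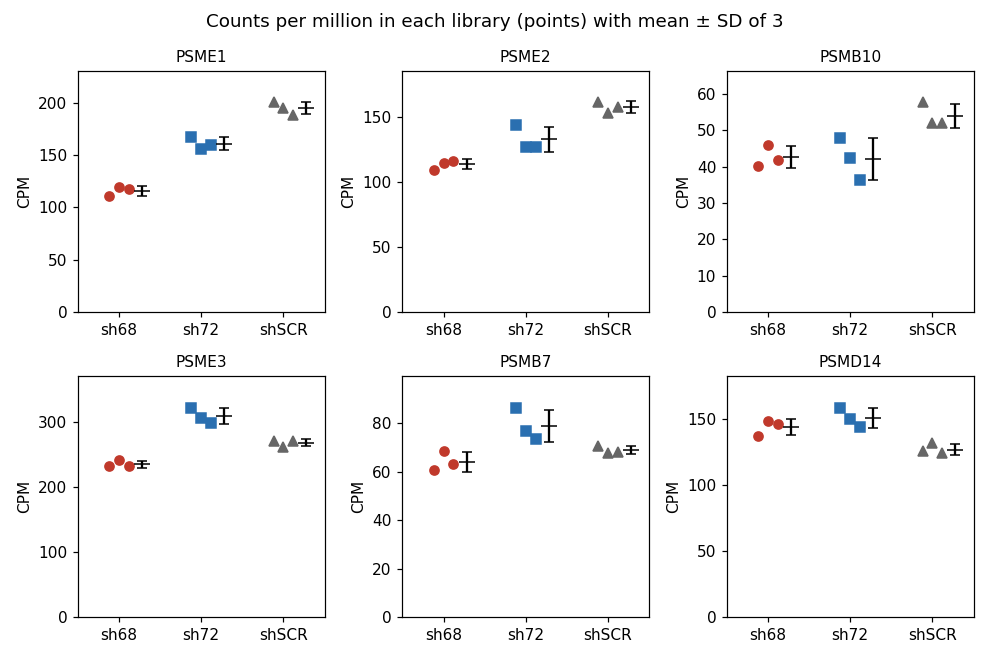
CPM (y axis, from 0) of PSME1, PSME2, PSMB10, PSME3, PSMB7 and PSMD14 in each library of sh68, sh72 and shSCR (points), with the mean ± SD of 3 libraries (bars). PSME1, PSME2 and PSMB10 are below shSCR with both shRNAs, PSME3 is below it with sh68 and above it with sh72, and PSMD14 is above it with both.

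Set against constitutive genes within each library, the balance was lower with both shRNAs for most pairs. These log2 ratios of read counts are a description with no test, and no length enters them. PSME1 over PSME3 was -1.07, -1.01 and -0.97 in the sh68 libraries, -0.94, -0.97 and -0.90 in sh72 and -0.43, -0.42 and -0.53 in shSCR. PSMB10 over PSMB7, the pair that fills the same place in the core, was -0.59, -0.57 and -0.59 in sh68, -0.85, -0.85 and -1.02 in sh72 and -0.29, -0.38 and -0.40 in shSCR. In both pairs all 6 LSD1 shRNA libraries lay below all 3 controls. The ratio of PSMB10 to PSMB7 was lowest in sh72, where PSMB7 was higher. PSMB10 over PSMB6 averaged -0.72 in sh68, -1.18 in sh72 and -0.71 in shSCR, so that sh68 was level with the control there. The ratios of PSMB8 to PSMB5 and of PSMB9 to PSMB6 could not be formed.

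**Figure D4:**
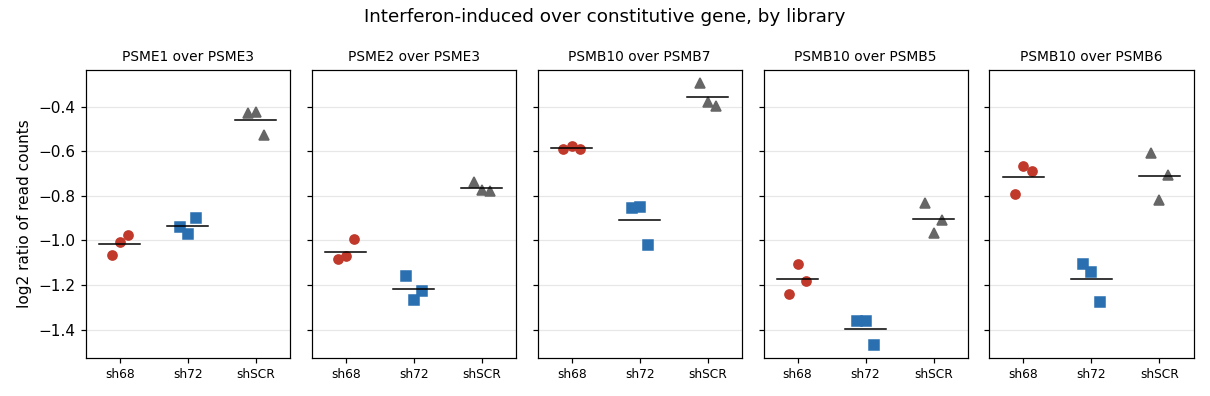
Log2 ratio of read counts (y axis) of an interferon-induced to a constitutive gene in each library (points) of sh68, sh72 and shSCR, with the mean as a line. Ratios to PSME3, PSMB7 and PSMB5 are lower in both LSD1 shRNA groups than in shSCR, and PSMB10 over PSMB6 averages -1.18 in sh72 and -0.72 in sh68 and -0.71 in shSCR.

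With sh68, 24 of the 44 members were called, 3 higher and 21 lower, against 55.5% of all genes, 27.4% higher and 28.1% lower. With sh72, 28 were called, 23 higher and 5 lower, against 51.0% of all genes, 24.7% higher and 26.3% lower. The share of members lower with sh68 (47.7%) and the share higher with sh72 (52.3%) were thus above the shares of all genes in those directions. Both comparisons use the same control libraries. The median log2 fold change of the members was -0.107 with sh68 and 0.114 with sh72, and over all genes it was -0.008 and -0.011. Under the other scalings the members lower with sh68 numbered 18 to 20 and those higher with sh72 numbered 25 or 26. Of all 15725 genes, 3947 were lower with sh68 and 4456 higher with sh72 by library size alone. With RLE factors these were 4321 and 4069. Without the first sh72 library, 17 members were higher with sh72, beside 3631 of 15986 genes.

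The direct difference of sh72 minus sh68, which needs no control library, was positive and past the test in 31 of the 44 members and negative in 2, while 56.2% of all genes were called, 27.2% higher and 29.0% lower. The 31 members make up 70.5% of those tested. Among the 30 constitutive 20S and 19S subunits tested, 24 were higher in sh72 than in sh68 and 0 lower; the other 6 did not pass, and 29 of the 30 had a value above 0. Their median difference was 0.258. Their CPM summed to 4406 to 4578 in the sh68 libraries, 5051 to 5639 in sh72 and 4767 to 4934 in shSCR, so the groups did not overlap. The first sh72 library had the highest sum.

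Of the alpha ring, 5 of 8 subunits were higher in sh72 than in sh68, against 27.2% of all genes. PSMA2 had 192, 208 and 200.1 CPM in the sh68 libraries, 284, 272 and 257 CPM in sh72 and 234, 237 and 238 CPM in shSCR. The groups did not overlap, with sh68 lowest and sh72 highest. The log2 fold change was -0.24 ± 0.041 (adjusted p = 2.44e-05) with sh68 and 0.20 ± 0.04 (adjusted p = 0.000221) with sh72, and the difference was 0.44 ± 0.04 (adjusted p = 2.3e-09), which with that of PSMB6 was the largest among the constitutive 20S and 19S subunits. PSMA6 had 94.5, 97.9 and 94.4 CPM in the sh68 libraries, 120.0, 109.8 and 109.6 CPM in sh72 and 106, 102 and 103 CPM in shSCR. Its values were -0.12 with sh68 and 0.13 with sh72, both past the test. The call with sh68 was lost by library size alone (adjusted p = 0.0562), with at least 1 CPM in 3 libraries (0.0503) and with offsets for GC content and length (0.0501). It was also lost without the first shSCR library (adjusted p = 0.13), the third shSCR library (0.0507), the first sh68 library (0.0827) or the third sh68 library (0.105), and the call with sh72 without the first sh72 library (0.115). PSMA4 fell with sh68, with 160.4, 176 and 169.6 CPM in the sh68 libraries, 207, 199 and 192 CPM in sh72 and 205, 200.1 and 211 CPM in shSCR. Its sh72 and shSCR libraries overlapped, and its change was -0.28 ± 0.041 (adjusted p = 2.29e-06) with sh68 and -0.04 ± 0.04 (adjusted p = 0.408) with sh72. PSMA3 and PSMA7 rose with sh72, by 0.20 and 0.19, and PSMA1 and PSMA8 passed in no comparison.

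Of the constitutive beta ring, 6 of the 6 subunits tested were higher in sh72 than in sh68, against 27.2% of all genes. The catalytic subunit PSMB5 had 95.0, 98.9 and 95.1 CPM in the sh68 libraries, 123, 109 and 100.4 CPM in sh72 and 103, 102 and 97.4 CPM in shSCR. Its sh72 libraries overlapped the controls, and its change with sh72, 0.14 ± 0.053 (adjusted p = 0.0296), was lost without the first sh72 library (adjusted p = 0.304) and without the third shSCR library (adjusted p = 0.0926). PSMB6 had 69.7, 73.1 and 67.6 CPM in the sh68 libraries, 103, 94.0 and 87.9 CPM in sh72 and 87.9, 91.9 and 84.8 CPM in shSCR. It was lower in every sh68 library than in any other library, with -0.33 ± 0.052 (adjusted p = 8.35e-06), and with sh72 it had 0.11 ± 0.051 (adjusted p = 0.0797). The value with sh72 passed under 6 of the 18 alternatives, among them those without the second shSCR library (adjusted p = 0.04) or the third sh72 library (adjusted p = 0.00571). On the mean of both shRNAs PSMB6 was called lower, at -0.111 (adjusted p = 0.039). That call was lost under most alternatives, such as DESeq2 (adjusted p = 0.0849), library size alone (0.117) and without the second shSCR library (0.277). PSMB7 had 60.6, 68.5 and 63.2 CPM in the sh68 libraries, 86.5, 76.8 and 73.6 CPM in sh72 and 70.8, 67.8 and 68.3 CPM in shSCR, with 0.20 ± 0.054 (adjusted p = 0.00409) for sh72 and -0.10 ± 0.055 (adjusted p = 0.11) for sh68, which passed without the first sh72 library (adjusted p = 0.045). PSMB2, a subunit without catalytic activity, had 224, 239 and 234 CPM in the sh68 libraries, 314, 276 and 273 CPM in sh72 and 242, 234 and 225 CPM in shSCR. Its sh72 libraries lay above all others, at 0.30 ± 0.047 (adjusted p = 8.14e-06), and its value with sh68 was -0.01. PSMB1 and PSMB4 rose with sh72 as well, by 0.21 and 0.13.

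Among the 6 ATPases of the 19S base, 4 were higher in sh72 than in sh68, against 27.2% of all genes. PSMC2 had 227, 232 and 231 CPM in the sh68 libraries, 315, 286 and 288 CPM in sh72 and 269.6, 264 and 263 CPM in shSCR. The groups did not overlap, and its log2 fold change was -0.20 ± 0.039 (adjusted p = 0.0001) with sh68 and 0.16 ± 0.039 (adjusted p = 0.00145) with sh72. PSMC4 and PSMC5 fell with sh68 by 0.26 and 0.12, PSMC6 rose with sh72 by 0.22, and PSMC3 passed in no comparison. PSMD1, the scaffold of the base, had 234, 236 and 241 CPM in the sh68 libraries, 317, 285 and 282 CPM in sh72 and 245, 236 and 235 CPM in shSCR. Its sh68 and shSCR libraries overlapped and its sh72 libraries lay above both, at 0.31 ± 0.042 (adjusted p = 1.41e-06). PSMD4, a receptor for ubiquitin chains, had 87.5, 91.3 and 88.6 CPM in the sh68 libraries, 124, 109 and 106 CPM in sh72 and 102, 105 and 99.7 CPM in shSCR. It was -0.19 with sh68 and 0.15 with sh72, both past the test, and the second call was lost without the first sh72 library (adjusted p = 0.164). PSMD2, the other scaffold, passed in no comparison.

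Of the 8 lid subunits, 7 were higher in sh72 than in sh68, against 27.2% of all genes. PSMD7, which pairs with the deubiquitinase PSMD14, had 118, 130.3 and 118 CPM in the sh68 libraries, 167, 156 and 155 CPM in sh72 and 136, 138 and 135 CPM in shSCR. PSMD3 had 209, 208 and 198 CPM in the sh68 libraries, 288, 251 and 240.0 CPM in sh72 and 238, 226 and 219.6 CPM in shSCR, and PSMD12 had 82.0, 85.5 and 85.9 CPM in the sh68 libraries, 102, 98.9 and 99.2 CPM in sh72 and 93.5, 92.8 and 92.3 CPM in shSCR. In all 3 genes the groups stood apart, with sh68 lowest and sh72 highest. The share of all genes whose groups stand apart was not counted. Their log2 fold changes with sh68 were -0.16 ± 0.043 for PSMD7, -0.15 ± 0.051 for PSMD3 and -0.14 ± 0.039 for PSMD12. With sh72 they were 0.22 ± 0.043 for PSMD7, 0.19 ± 0.05 for PSMD3 and 0.11 ± 0.039 for PSMD12, and all 6 values passed. The call of PSMD3 with sh68 was lost without the first shSCR library (adjusted p = 0.126), without the third sh68 library (adjusted p = 0.101) and with offsets for GC content and length (adjusted p = 0.195), and that of PSMD12 with sh72 without the first sh72 library (adjusted p = 0.078).

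PSMD11, a lid subunit, had 174, 178 and 175 CPM in the sh68 libraries, 255, 228 and 225 CPM in sh72 and 221, 221 and 220.4 CPM in shSCR. It was lower in every sh68 library, with -0.33 ± 0.042 (adjusted p = 4.24e-07), and its change with sh72, 0.10 ± 0.042 (adjusted p = 0.0583), did not pass although the libraries did not overlap. It passed under 13 of the 18 alternatives, such as library size alone (adjusted p = 0.00389), and without any 1 sh68 library or the second or the third sh72 library (adjusted p = 0.00868 to 0.0466). PSMD14, which cuts ubiquitin from the substrate, had 137, 149 and 146 CPM in the sh68 libraries, 159, 150.3 and 144 CPM in sh72 and 126, 132 and 124 CPM in shSCR. It was the 1 lid subunit higher with both shRNAs, with 0.18 ± 0.043 (adjusted p = 0.0011) for sh68 and 0.25 ± 0.043 (adjusted p = 4.1e-05) for sh72. Its difference between them, 0.07 ± 0.043 (adjusted p = 0.191), did not pass but did without the third sh72 library (adjusted p = 0.0459).

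PSME1, PSME2, PSMB10 and PSMD5 were lower with each shRNA, 4 of the 44 members against 13.0% of all genes, and PSMD14, PSMD9 and PSMG1 were higher with each, 3 of the 44 against 12.5% of all genes. PSMD5, PSMD9 and PSMD10 are chaperones that hold the ATPases during assembly of the base and leave the finished particle. PSMD9 had 114, 115 and 114 CPM in the sh68 libraries, 92.5, 92.6 and 88.6 CPM in sh72 and 90.6, 80.8 and 82.5 CPM in shSCR. The sh68 libraries stood above all others, and sh72 overlapped shSCR. Its log2 fold change was 0.43 ± 0.044 (adjusted p = 1.04e-08) with sh68, the largest rise of a member, and 0.11 ± 0.044 (adjusted p = 0.0458) with sh72. The call with sh72 was lost without the second shSCR library (adjusted p = 0.164), the third shSCR library (adjusted p = 0.118), the first sh72 library (adjusted p = 0.093) or the second sh72 library (adjusted p = 0.0769). PSMD9 and PSMG1 were the 2 members lower in sh72 than in sh68, PSMD9 with a difference of -0.33 ± 0.043 and PSMG1 with -0.13 ± 0.042 (adjusted p = 0.0131). The difference of PSMG1 did not pass without the second sh68 library (adjusted p = 0.0574) or the second sh72 library (adjusted p = 0.0969).

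PSMD5 had 65.8, 69.9 and 70.1 CPM in the sh68 libraries, 70.9, 68.9 and 67.3 CPM in sh72 and 77.5, 79.5 and 85.1 CPM in shSCR. All 6 LSD1 shRNA libraries lay below the controls, with -0.23 ± 0.046 (adjusted p = 0.000125) for sh68 and -0.23 ± 0.046 (adjusted p = 0.000224) for sh72. PSMD10 fell with sh68 by 0.23 and had 0.06 with sh72, which did not pass. PSMG1, which with PSMG2 starts the alpha ring, had 80.0, 83.3 and 82.1 CPM in the sh68 libraries, 77.2, 72.7 and 74.8 CPM in sh72 and 71.5, 67.4 and 68.1 CPM in shSCR. The groups did not overlap, with sh68 highest and shSCR lowest. Its change was 0.24 ± 0.043 (adjusted p = 3.3e-05) with sh68 and 0.12 ± 0.043 (adjusted p = 0.025) with sh72, and the call with sh72 was lost without the second shSCR library (adjusted p = 0.0695), the third shSCR library (adjusted p = 0.0559) or the first sh72 library (adjusted p = 0.0943). PSMG2 passed in no comparison, and PSMG3 rose with sh72 by 0.24.

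The activator genes PSME3 and PSME4, which interferon is not known to induce, rose with sh72, where PSME1 and PSME2 fell. PSME3, which forms a nuclear activator ring, had 232, 241 and 232 CPM in the sh68 libraries, 322, 305 and 298 CPM in sh72 and 269.9, 262 and 271 CPM in shSCR. The groups did not overlap, and the log2 fold change was -0.19 ± 0.037 (adjusted p = 0.000163) with sh68 and 0.21 ± 0.037 (adjusted p = 6.09e-05) with sh72. PSME4, a large single-chain activator, had 362, 384 and 368 CPM in the sh68 libraries, 410.1, 381 and 401 CPM in sh72 and 360.4, 368 and 365 CPM in shSCR. It rose with sh72, at 0.12 ± 0.037 (adjusted p = 0.00723), and was 0.03 with sh68, where it overlapped shSCR. PSMF1, an inhibitor of the core in the test tube, had 115, 125 and 118 CPM in the sh68 libraries, 122, 113 and 107 CPM in sh72 and 128, 132 and 125 CPM in shSCR. It fell with sh72, at -0.17 ± 0.046 (adjusted p = 0.00307), and had -0.10 ± 0.045 (adjusted p = 0.0586) with sh68. Without the third sh72 library the call of PSMF1 with sh72 was lost (adjusted p = 0.0573), and its value with sh68 passed under 6 of the 18 alternatives, among them those without the second sh68 library (adjusted p = 0.0477) or the first sh72 library (adjusted p = 0.022).

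The pattern of PSME1 over the 9 libraries was compared with that of each other member tested, by Pearson correlation of log2(CPM + 0.5). The 5 most alike were PSME2 (r = 0.964), PSMA4 (0.935), PSMD13 (0.849), PSMC4 (0.839) and PSMA1 (0.83). PSMB10, which fell by 0.34 with sh68 and 0.35 with sh72, had 0.657, and PSMD9 had -0.942. The libraries of a group share their shRNA, so these values describe 3 groups more than 9 points.

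Genes that act with the proteasome or on its genes were counted beside the members. Of 5 transcription factors of the interferon response, 2 fell with sh68 and 5 with sh72, and IRF1 rose with sh68. Of all genes, 28.1% were lower and 27.4% higher with sh68, and 26.3% were lower and 24.7% higher with sh72. IRF9, which binds the ISRE, averaged 30.2 ± 1.81 CPM in sh68 and 50.5 ± 2.01 CPM in sh72, against 81.8 ± 1.36 CPM in shSCR (SD, n = 3 each). Its log2 fold change was -1.43 ± 0.05 (adjusted p = 4.31e-17) with sh68 and -0.69 ± 0.048 (adjusted p = 2.54e-11) with sh72. STAT2, its partner there, had -0.61 ± 0.057 with sh68 and -0.21 ± 0.056 with sh72. In both genes, as in PSME1 and PSME2, sh68 was the lower of the shRNAs by the direct test, with a difference of 0.74 for IRF9 and 0.40 for STAT2. The same order passed in 31 of the 44 members, most of them constitutive, and in 27.2% of all genes. The difference of PSMB10 did not pass (-0.015, adjusted p = 0.876). IRF1, a factor bound to ISRE letters as well, had 0.36 ± 0.078 (adjusted p = 0.000321) with sh68 and -0.44 ± 0.083 (adjusted p = 0.000115) with sh72. Whether these factors take part in the changes of the members was not tested.

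Of 10 genes of the NFE2L1 pathway of proteasome gene control, 7 fell and 1 rose with sh68 (28.1% and 27.4% of all genes), and 4 fell and 0 rose with sh72 (26.3% and 24.7% of all genes). NFE2L1 itself averaged 140.0 ± 0.955 CPM in sh68 and 176 ± 6.69 CPM in sh72, against 165 ± 8.32 CPM in shSCR. It had -0.23 ± 0.041 (adjusted p = 3.48e-05) with sh68 and 0.09 ± 0.041 (adjusted p = 0.0745) with sh72, and sh72 exceeded sh68 by 0.32 ± 0.041 (adjusted p = 3.55e-07). The value of NFE2L1 with sh72 passed under 7 of the 18 alternatives, among them those without the second shSCR library (adjusted p = 0.0201) or the third sh72 library (adjusted p = 0.0174). DDI2, the protease that activates NFE2L1, had -0.35 ± 0.06 with sh68, which passed, and -0.10 ± 0.059 with sh72, which did not. NGLY1, which removes its sugars, fell with both, by 0.13 with sh68 and 0.17 with sh72. SEL1L and SYVN1, the pair that takes proteins out of the endoplasmic reticulum, had -0.66 and -0.35 on the mean of both shRNAs. VCP, which pulls NFE2L1 from the membrane, passed in no comparison.

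Of 18 genes whose proteins act on or beside the proteasome, 4 rose and 7 fell with sh68 (27.4% and 28.1% of all genes), and 9 rose and 2 fell with sh72 (24.7% and 26.3% of all genes). The direct difference of sh72 minus sh68 was positive in 10 and negative in 3 (27.2% and 29.0% of all genes). POMP, the maturation factor of the core, rose with sh72 at 0.24 ± 0.043 (adjusted p = 5.09e-05) and had -0.03 with sh68. SEM1, a small lid subunit outside the PSM names, rose with sh72 by 0.15, and the ubiquitin receptor ADRM1 passed with neither. UCHL5, a deubiquitinase of the particle, had -0.28 ± 0.042 (adjusted p = 4.64e-06) with sh68 and 0.20 ± 0.042 (adjusted p = 0.000324) with sh72, the same opposite calls as 8 of the 44 members and 3.5% of all genes. USP14, the other one, fell with sh72 by 0.17. UBE3C, TXNL1, UBQLN1 and UBQLN4 had the same opposite calls as UCHL5. UBE3A had the reverse, higher with sh68 and lower with sh72. AKIRIN2, which brings proteasomes into the nucleus, had 0.70 ± 0.046 (adjusted p = 5.32e-12) with sh68 and -0.08 ± 0.048 (adjusted p = 0.152) with sh72. UBQLN2, a shuttle for ubiquitinated proteins, rose with both, at 0.40 with sh68 and 0.37 with sh72. PAAF1 passed in no comparison.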

How the data were processed

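Polyadenylated RNA of 9 OCI-Ly1 libraries was measured. The authors deposited read counts by gene symbol, whole and not normalized. Per the submitters' processing notes, the genome was hg38 and the tools were featureCounts 1.5.2, STAR 2.5.2 and CASAVA 1.8.2; how they were set, the annotation and the strandedness are not given in the sources used. Without the strand setting, reads where genes overlap cannot be assigned with certainty. Beside PSMC1 and PSMB10, members such as PSMD7 (30.73% of exon length), PSMA1 (24.66%), PSMA2 (19.55%) and PSMA6 (14.13%) overlap other genes. Counts were fitted in R 4.3.3 with edgeR 4.0.16 by 1 quasi-likelihood model of the 3 groups over all libraries, after filterByExpr and TMM scaling, at a common biological variation (BCV) of 0.0394. The fit was also run on simulated data in which few genes changed, alike with both shRNAs. It was not tried where many genes change or the shRNAs differ, as they do here. P values were adjusted over 15725 genes by Benjamini and Hochberg, and an SE is the absolute log2 fold change over the square root of F. CPM are TMM-scaled.

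Results were recomputed without a filter and with at least 1 CPM in 3 libraries, with library size alone or RLE factors, with DESeq2 1.42.0 and limma-voom (limma 3.58.1), with a replicate block, with GC and length offsets, with the compared groups only, and without each library in turn. Transcript lengths come from GENCODE 29. Values in every library were given for the catalytic and interferon-induced subunits, the activators and PSMF1, the 6 highest and 6 lowest called members on the mean and on sh72 minus sh68, and members called with opposite signs, 26 genes in all including PSMB8 and PSMB9. Values of the other members and of the lists are summarised. Up to 4 called genes of a list, some genes fixed by name and the opposite calls among genes that act beside the proteasome are given. The members, lists and rule were chosen with earlier results of these data known. Replicates were numbered in the labels, and chi-square values per degree of freedom between libraries of a group were 2.63 to 7.17, above the value of about 1 that copies of 1 library would give. All 9 columns were used. Some genes of the lists are not reported here. The 3 replicates a group are biological, per the labels. An SD of CPM or RPKM is their spread, while an SE comes from the model of all 9 libraries.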

Additional observations from a re-analysis of the deposited data

Results flagged for a closer look

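In all, 8 of the 44 members were called in opposite directions by the LSD1 shRNAs against shSCR, lower with sh68 and higher with sh72, against 3.5% of all genes, and their difference of sh72 minus sh68 passed the test: PSMA2 at 0.438, PSMA6 at 0.243, PSMC2 at 0.364, PSMD3 at 0.341, PSMD4 at 0.341, PSMD7 at 0.382, PSMD12 at 0.246 and PSME3 at 0.393 on the log2 scale. They are subunits of the alpha ring (PSMA2, PSMA6), an ATPase (PSMC2), a ubiquitin receptor (PSMD4), lid subunits (PSMD3, PSMD7, PSMD12) and the nuclear activator PSME3. Against the same controls, the B-cell markers fell with sh72 and the interferon factors STAT2 and IRF9 fell more with sh68, and their part in these differences was not tested. Without the first sh72 library, the calls with sh72 of PSMA6 (adjusted p = 0.115), PSMD4 (0.164) and PSMD12 (0.078) were lost. The calls with sh68 of PSMA6 and PSMD3 were lost under some alternatives.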

How the results depend on the processing

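The falls of PSME1, PSME2, PSMB10 and PSMD5 with each shRNA and the rises of PSMD14 with each shRNA passed under all alternatives run, with sh68 and sh72 values of PSMB10 from -0.38 to -0.229 and from -0.453 to -0.236. On the mean of both shRNAs, members higher numbered 5 and became 12 by library size alone, 10 with at least 1 CPM, 8 with the replicate block and 13 with offsets for GC content and length. Of all genes, 3908 of 15725 were higher in the reported fit. By library size alone 4475 of 15725 were higher, and with the block 4091 of 15725. With at least 1 CPM 3811 of 13130 were higher, and with the offsets 4048 of 13163. Leaving out 1 library gave 5 to 11 higher members (8 without the first shSCR library, 11 without the third sh72 library) and 6 to 14 lower (6 without the first or second shSCR library or the second sh72 library, against 10). Of all genes, these fits had 3567 to 4091 higher and 3584 to 4508 lower, of 15922 to 16071 tested. With the offsets, which tested 13163 genes, 5 members were higher with sh68 and 4 lower in sh72 than in sh68, against 3 and 2. Of all genes, these directions had 4216 and 4080 with the offsets, against 4309 and 4563 of 15725. Leaving out 1 library gave 1 to 3 members lower in sh72 than in sh68, and 4147 to 4531 of all genes. Replicate numbers did not pair the libraries: residuals of same-numbered libraries had r from -0.0358 to 0.0724, and not every library correlated best with its own number; apart from the 8 above, the block moved no count of members by more than 1.5 times.

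Values near 0 that passed no test changed sign. For sh68 minus shSCR, PSMB2 (-0.006) was 0.022 by library size alone, 0.017 with at least 1 CPM and 0.017 with offsets; PSMD1 (-0.007) was 0.021, 0.016 and 0.010; POMP (-0.027) was 0.001 by library size alone and 0.008 with offsets; PSMB5 was 0.000 with offsets. For sh72 minus sh68, PSMB10 was 0.001 with only the groups compared. Leaving out 1 library gave -0.028 to 0.028 for PSMB2, -0.013 to 0.021 for PSMD1 and -0.042 to 0.015 for POMP with sh68, -0.07 to 0.001 for PSMA4 with sh72, and -0.116 to 0.09 for PSMB10 and -0.016 to 0.035 for PSMD5 in sh72 minus sh68. The cause was not tested. The fit of only the groups compared gives no mean of both shRNAs. Over all alternatives, called values passed again 1595 times and did not 44 times; values that had not passed did so 35 times, those of PSMD11, PSMB6 and NFE2L1 with sh72, PSMF1 and PSMB7 with sh68, and PSMD14 and PSMF1 in sh72 minus sh68. The counts of PSMB3, PSMB8 and PSMB11 were too low to test, and those of PSMC1 are uncertain.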

Other observations

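Genes that work with the interferon-induced proteasome in presenting peptides on MHC class I were called in both directions. Of 11 tested of 14 listed, 3 rose (27.3%) and 3 fell (27.3%) on the mean of both shRNAs, close to the 24.9% and 27.5% of all genes. TAP2, a subunit of the peptide transporter, averaged 9.97 ± 0.55 CPM in sh68 and 11.8 ± 1.19 CPM in sh72, against 13.7 ± 0.915 CPM in shSCR, with -0.46 ± 0.084 (adjusted p = 6.71e-05) and -0.21 ± 0.083 (adjusted p = 0.0352) on the log2 scale. ERAP1, which trims the peptides, rose with both, at 0.14 with sh68 and 0.21 with sh72, and so did the chaperones CALR and CANX. NLRC5, the activator of MHC class I genes, had -0.41 ± 0.065 (adjusted p = 1.24e-05) with sh72 and 0.12 ± 0.062 (adjusted p = 0.121) with sh68. B2M, the light chain, was at 23.9 ± 0.582, 24.0 ± 2.27 and 22.9 ± 1.04 CPM in sh68, sh72 and shSCR and passed in no comparison. TAP1, HLA-C and HLA-E were too low to test.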
